A study of Mus musculus with 4 samples.

Results

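A set of 10 genes of canonical Wnt signalling was examined in mouse embryoid bodies at day 6 for peaks of Trim33, of CTCF and of acetylation of histone H3 on lysine 27 (H3K27ac). The genes were the transcription factor genes Lef1, Tcf7 and Tcf7l1 and the Wnt targets Sp5, Axin2, Nkd1, Znrf3, Rnf43, Lgr5 and Dkk1, which makes 10 of the 21887 protein-coding genes on the chromosomes used. A peak was taken for a gene if its summit lay inside the gene or within 20 kb of either end in the RefSeq annotation of GRCm38. This gave 11 of the 4426 Trim33 peaks, 39 of the 52446 CTCF peaks and 69 of the 30047 H3K27ac peaks, and no peak was taken for more than 1 of the genes.

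Embryoid bodies are aggregates of embryonic stem cells that differentiate into cells of several germ layers. The libraries were Trim33 ChIP, CTCF ChIP, H3K27ac ChIP and input DNA, 1 of each, all from the same kind of culture. The stem cells were derived from Trim33FF: UbcCreERT2 blastocysts of the strain Outbred - B6:129Sv, and the labels list no treatment and no induction of the Cre, so every library carries the floxed Trim33 allele and the Cre that the ubiquitin C promoter drives. Before differentiation in 20% serum the cells were kept without feeders in LIF and 2 inhibitors, one of MEK and one of GSK3, and GSK3 normally marks beta-catenin for destruction. According to the authors' deposited summary, the Trim33 library had 13643929 usable tags, the CTCF library 33090822, the H3K27ac library 29995044 and the input 25729171. Reads inside peaks made up 0.72% for Trim33, 26.46% for CTCF and 13.02% for H3K27ac in the same summary, where the column headings give Trim33 and input a different project code from the other libraries, so antibody and code cannot be told apart. With 1 library per antibody no difference below has a replicate check and none was tested. Each fold is the authors' enrichment over background at a peak and ranks peaks within 1 list only, and a percentile is the rank of that fold in its own list. Since the material is a mixture, fewer cells with a peak and a weaker peak in every cell cannot be told apart. As a look at the label, 8 of 13 germ layer markers had an H3K27ac summit within 1 kb of a gene end, where 39.2% of all protein-coding genes did. They were the pluripotency genes Pou5f1, Nanog and Sox2, the endoderm genes Sox17, Foxa2 and Gata6, the streak gene Eomes and the neural gene Sox1. The markers without one were T, Mixl1, Pax6 and the heart muscle genes Tnnt2 and Myh6.

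In canonical Wnt signalling, ligand binding to Frizzled and Lrp receptors stops the destruction of beta-catenin, which then enters the nucleus and binds Tcf/Lef factors on DNA. Without beta-catenin these factors recruit co-repressors, and Tcf7l1 is known mainly as a repressor in embryonic stem cells. Many direct targets feed back on the pathway, and the pathway acts in the formation of the primitive streak and mesoderm. Trim33 is a chromatin-binding protein that acts with Smad proteins downstream of Nodal and related ligands, CTCF is the main insulator-binding protein of mammals, and H3K27ac is found at promoters and enhancers in use.

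The promoters of 4 genes are printed. Sp5 and Tcf7l1 were taken because Trim33 had a summit within 1 kb of the gene's 5′ end. Axin2 and Dkk1 were taken because a motif searched stood in or beside a CTCF peak at their promoter. Lef1 had a Trim33 summit 0.384 kb before a further start listed inside the gene. The entry of that start met no peak and is not printed. Promoter entries of Lef1, Tcf7 and Rnf43 also met a peak, of H3K27ac or CTCF, and are not printed. An entry counted as met if a peak shared bases with the 250 before the start or the 50 after it. The H3K27ac peak at the Lef1 entries shared bases only after the start. RefSeq (GRCm38.p6) lists promoters for 8 of the 10 genes, in 13 entries, and Znrf3 and Lgr5 are the genes without one. The 250 bases before the start of Sp5 (chr2:70474673-70474922, plus strand), Axin2 (chr11:108920099-108920348, plus strand), Tcf7l1 (chr6:72789046-72789295, minus strand) and Dkk1 (chr19:30549497-30549746, minus strand) read as follows, 5′ to 3′. Capitals mark matches to the Tcf/Lef motif CTTTGAT or CTTTGAA, or to the CTCF core, taken as CCA, AG and GGC in this order with 2 free bases between neighbours, searched on both strands. The Tcf/Lef and CTCF matches printed do not overlap each other.
Sp5: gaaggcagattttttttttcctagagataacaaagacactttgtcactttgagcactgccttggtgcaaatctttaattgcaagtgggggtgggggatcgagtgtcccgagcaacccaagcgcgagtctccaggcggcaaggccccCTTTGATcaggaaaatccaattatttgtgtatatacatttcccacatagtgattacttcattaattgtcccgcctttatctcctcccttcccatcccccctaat
Axin2: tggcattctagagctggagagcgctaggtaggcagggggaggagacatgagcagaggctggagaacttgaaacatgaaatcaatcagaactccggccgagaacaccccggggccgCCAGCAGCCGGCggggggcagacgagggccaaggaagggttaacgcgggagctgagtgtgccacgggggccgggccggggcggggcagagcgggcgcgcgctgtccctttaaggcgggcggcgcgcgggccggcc
Tcf7l1: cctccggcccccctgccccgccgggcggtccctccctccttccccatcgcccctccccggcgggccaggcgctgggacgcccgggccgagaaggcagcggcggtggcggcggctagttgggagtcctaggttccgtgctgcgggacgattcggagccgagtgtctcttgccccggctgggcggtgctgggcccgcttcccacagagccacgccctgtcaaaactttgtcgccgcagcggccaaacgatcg
Dkk1: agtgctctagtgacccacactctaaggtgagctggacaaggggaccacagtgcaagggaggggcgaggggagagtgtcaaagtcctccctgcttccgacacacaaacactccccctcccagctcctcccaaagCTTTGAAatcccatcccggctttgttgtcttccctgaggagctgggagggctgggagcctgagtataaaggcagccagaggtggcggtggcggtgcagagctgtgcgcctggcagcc

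In Sp5 the Tcf/Lef match began 104 bases before the start and lay inside a Trim33 peak, 87 bp from its summit. In Axin2 the CTCF core match began 135 bases before the start, and its centre was 6.5 bp from the summit of a CTCF peak. The short Smad motif CAGAC followed in Axin2 at 117 bases before the start and does not overlap the capitals. Among the entries not printed, CAGAC also stood before listed starts of Lef1 and Rnf43. The Tcf/Lef match of Dkk1 began 117 bases before the start and stood 4 bp outside a CTCF peak. The stretch before Tcf7l1 held neither motif, although it shared 184 of its bases with a CTCF peak. The summit of that CTCF peak, 565 bp upstream, lay outside the stretch. The Trim33 peak there, with its summit 530 bp upstream, shared no base with it. The sequence under these 2 summits was therefore not read. No Tcf/Lef match was present in the 250 bases before any listed start of Lef1, Tcf7, Nkd1, Rnf43 or Axin2, which says only that these letters are not in those windows. The Tcf/Lef letters were present in 7.48% of all 32851 promoter entries of that length and in 5.41% of the 906 entries met by a Trim33 peak. The CTCF core was present in 2.07% of all entries and in 7.28% of the 3890 entries met by a CTCF peak. The Smad motif CAGAC was present in 42.2% of all entries, and its palindrome GTCTAGAC, which none of the 13 entries held, in 0.167%.

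Trim33 had a summit at 6 of the 10 genes, where 21% of all protein-coding genes had one. These were the 3 Tcf/Lef genes, Sp5, Axin2 and Dkk1. With only peaks of −log10 q of at least 10 counted, Trim33 had a summit at 2 of the 10 genes, Tcf7 and Dkk1, where 3.47% of all protein-coding genes had one. Without that cut, the 4 genes with no Trim33 summit were Nkd1, Znrf3, Rnf43 and Lgr5. CTCF had a summit at all 10, against 75.3% of protein-coding genes, and H3K27ac at 7 of 10, against 59.2%. Summits of all 3 antibodies stood at 5 genes, Sp5, Axin2, Lef1, Tcf7 and Tcf7l1, where the share of all protein-coding genes was 17.2%. Dkk1 had Trim33 and CTCF, Znrf3 and Rnf43 had CTCF and H3K27ac, and Nkd1 and Lgr5 had CTCF only. The genes ran from 2.80 kb (Sp5) to 169 kb (Znrf3), and longer genes offer more room for a summit. Among protein-coding genes of that range of length, the shares were 22.4% for Trim33, 80.8% for CTCF and 65.5% for H3K27ac. The 2 genes under 5 kb, Sp5 and Dkk1, both had Trim33, where 13.3% of genes of that length did. Both genes of 5 to 50 kb, Axin2 and Tcf7, had it, where 21.8% did. Neither gene of 50 to 100 kb, Nkd1 and Rnf43, had it, where 23.2% did. Of the 4 genes of 100 to 200 kb, Lef1 and Tcf7l1 had it, where 27.9% did.

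**Figure D1:**
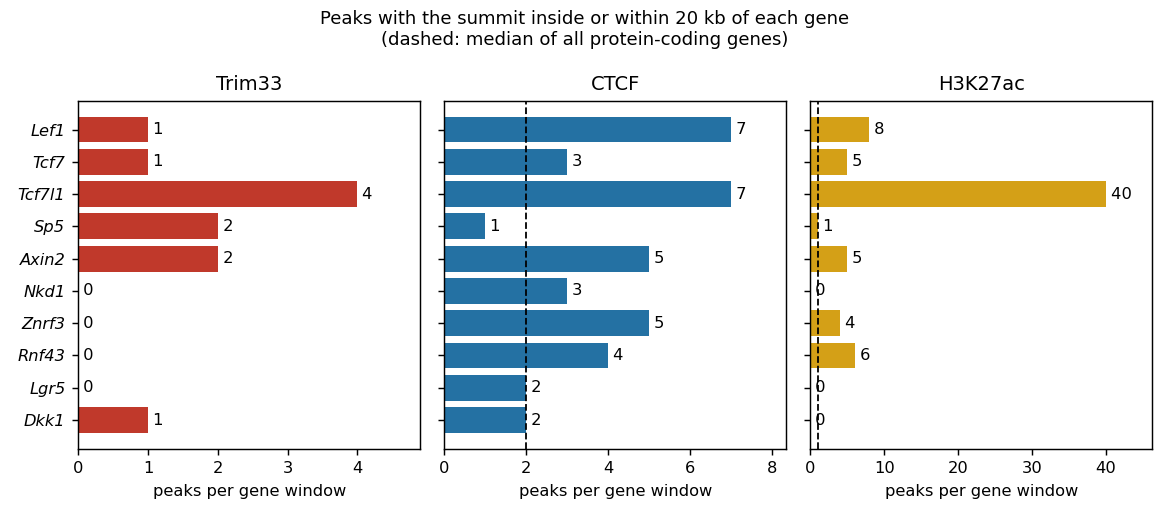
Number of peaks (horizontal axis) with the summit inside or within 20 kb of each of the 10 genes (vertical axis), for Trim33, CTCF and H3K27ac from left to right, 1 library each; the dashed line is the median over all protein-coding genes, which is 0 for Trim33. Tcf7l1 stands out with 40 H3K27ac and 4 Trim33 peaks, while Nkd1 and Lgr5 have CTCF peaks only.

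Within 1 kb of a gene end the picture was narrower. Trim33 had a summit there at 2 genes, Sp5 and Tcf7l1, where 6.66% of all protein-coding genes had one. CTCF had one at 6 genes, namely Sp5, Tcf7l1, Nkd1, Rnf43, Lgr5 and Dkk1, against 26.2%, and H3K27ac at 6 genes, namely Sp5, Axin2, Lef1, Tcf7, Tcf7l1 and Rnf43, against 39.2%. The edge of the 20 kb window did not divide close neighbours for Trim33. The outermost summit taken lay 14.1 kb from Tcf7 with a fold of 7.33. The first one left out lay 25.4 kb from Lef1 with a fold of 4.82. A window of 5 kb gave 8 Trim33 peaks at 4 genes, and Tcf7 and Dkk1 then had none. For CTCF the outermost summit taken was 14.2 kb from Tcf7 (fold 32.8), and the first left out was 20.4 kb from Lef1 (fold 4.16). For H3K27ac the corresponding values were 18.7 kb (fold 4.83) and 21.6 kb (fold 7.50), both at Tcf7.

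The heights of the peaks covered much of each list. The 11 Trim33 peaks had folds of 4.82 to 8.04 with a median of 6.43, beside a median of 5.67 over all Trim33 peaks, and 8 of the 11 were above that median. None reached the top of the list, where the highest fold was 20.4. The 39 CTCF peaks ran from 5.02 to 32.8 with a median of 9.93, beside 9.46 over the list. The 69 H3K27ac peaks ran from 3.27 to 19.6 with a median of 6.02, beside 6.74 over the list, and 29 of them were above the list median. Of the 69, 40 stood at Tcf7l1, with a median of 5.79. At the other genes with H3K27ac the medians ran from 4.83 (Tcf7) to 10.8 (Sp5). Trim33 folds come in coarse steps, since 4426 peaks share 646 distinct values. The fold of 6.83 at both Lef1 and the start of Sp5 is 1 such step, which 112 Trim33 peaks share.

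**Figure D2:**
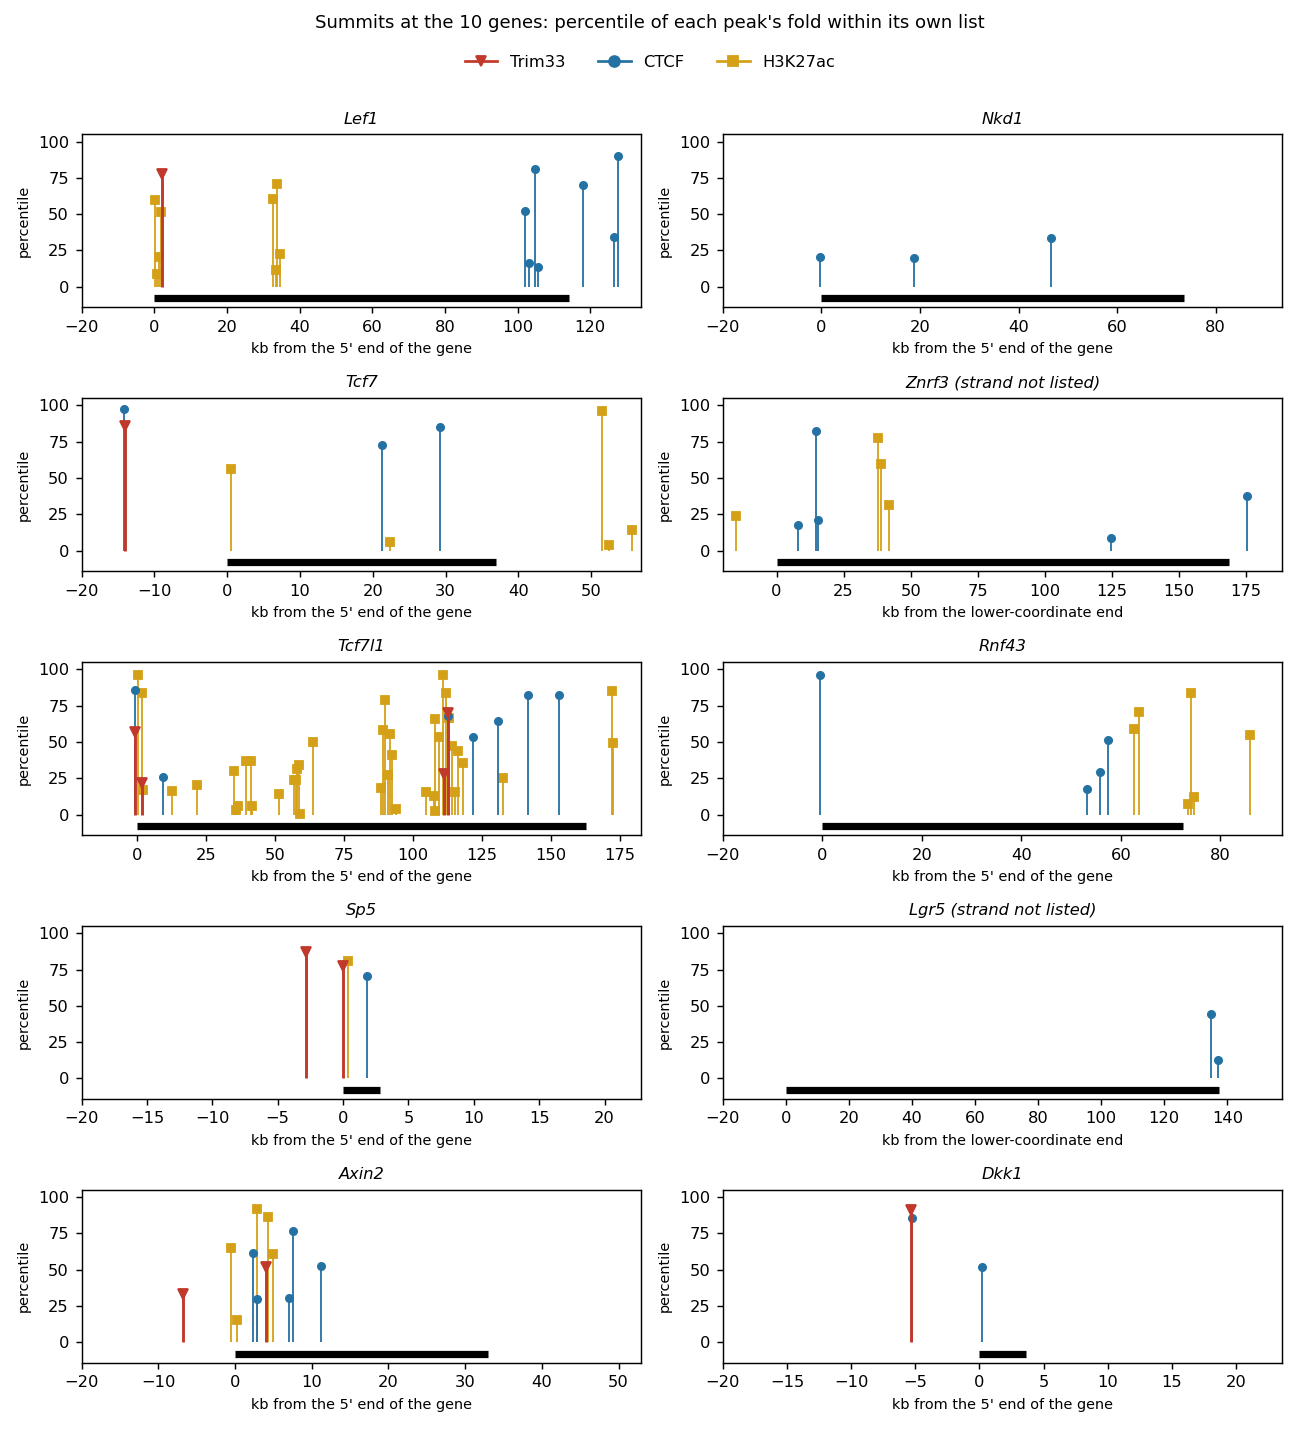
Position and rank of every peak at the 10 genes. The horizontal axis gives kb from the 5' end of the gene along the direction of transcription (from the lower-coordinate end for Znrf3 and Lgr5), the black bar is the gene, and the vertical axis gives the percentile of the peak's fold within its own list (triangles Trim33, circles CTCF, squares H3K27ac). Trim33 and CTCF summits coincide upstream of Tcf7 and Dkk1, and CTCF at Lef1 lies at the far end of the gene from Trim33.

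Among the Tcf/Lef genes, Tcf7l1 carried the most peaks. It lies on chromosome 6 from 72626371 to 72789045 (162.7 kb, minus strand) and had 4 Trim33, 7 CTCF and 40 H3K27ac peaks. As many H3K27ac peaks or more were counted at 8 of the 21887 protein-coding genes, itself included, and as many Trim33 peaks or more at 55. Set against the length of the window, Tcf7l1 had 19.7 H3K27ac peaks per 100 kb, more than 98.1% of the genes, and 1.97 Trim33 peaks per 100 kb, more than 91.7%. The 2 H3K27ac peaks beyond its 3′ end, with folds of 6.68 and 12.3, had the neighbouring gene Tgoln1 as the nearest, and the other 38 had their summits inside Tcf7l1.

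Trim33 stood in 2 places of Tcf7l1. At the start of Tcf7l1, a Trim33 peak of fold 6.00 (percentile 57.2) had its summit 530 bp upstream and a second of fold 4.82 (percentile 21.9) lay 1.73 kb into the gene. The upstream one overlapped a CTCF peak of fold 21.0, with the summits 35 bp apart, and an H3K27ac peak of fold 19.6 and 2256 bp in width, the highest of the gene. The inner one overlapped an H3K27ac peak of fold 11.7, with summits 12 bp apart, and no CTCF peak. The other pair lay deep inside the gene, 112.5 and 111.2 kb from the start, with folds of 6.43 and 5.0. The summit of the first was 29 bp from that of a CTCF peak of fold 13.7, and the second lay 800 bp from that CTCF peak. Both overlapped H3K27ac, with folds of 11.7 and 19.2.

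When H3K27ac peaks within 1 kb of each other were joined, the 40 peaks of Tcf7l1 became 15 regions. The deep pair of Trim33 peaks lay in the longest of them, which held 10 peaks over 9.15 kb and was longer than 99.1% of the 16836 joined regions of the genome. The pair at the start lay in a region of 3 peaks over 3.24 kb. A region of 6 peaks over 4.10 kb, with its highest summit 89.9 kb from the start and a fold of 10.3, was longer than that at the start and met no Trim33 peak. No other region of Tcf7l1 met a Trim33 peak. The 4 CTCF peaks from 121.9 to 152.7 kb into the gene, with folds of 10.2 to 19.4, met neither Trim33 nor H3K27ac peaks.

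**Figure D3:**
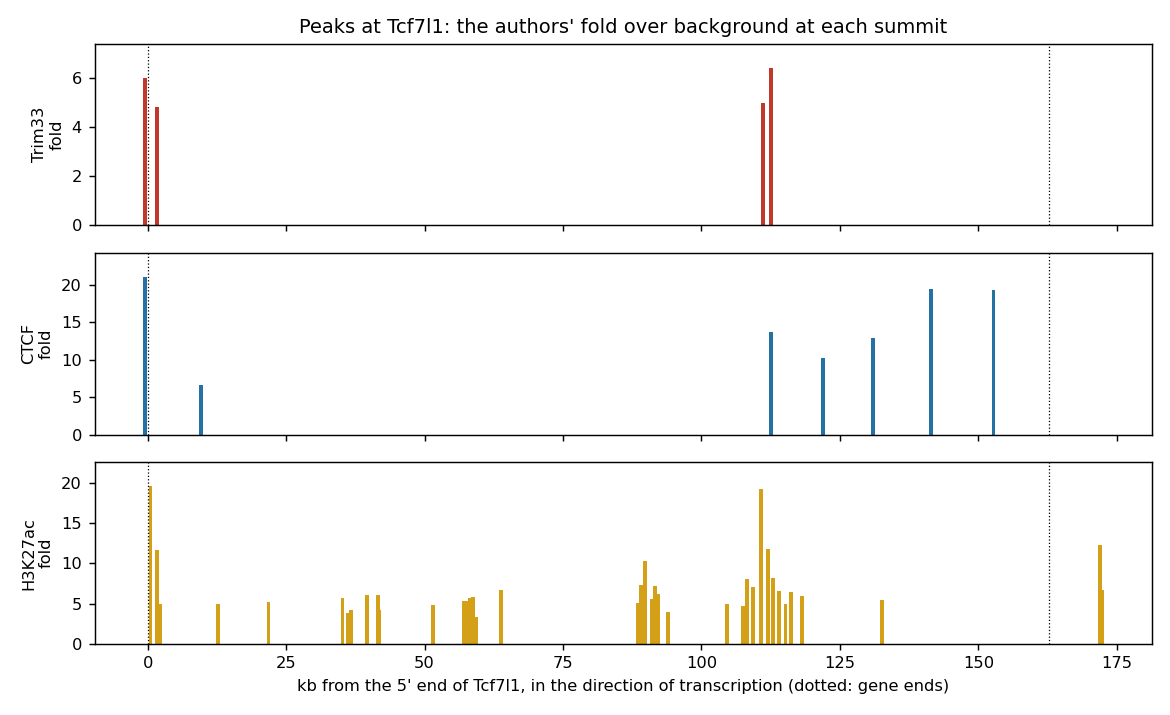
Peaks at Tcf7l1 in 3 panels from top to bottom, Trim33, CTCF and H3K27ac. Each bar is 1 peak at its summit, the vertical axis gives the authors' fold over background (axes differ between panels), and the horizontal axis gives kb from the 5' end along transcription, with dotted lines at both gene ends. The 4 Trim33 peaks, with folds of 4.82 to 6.43, stand in pairs at the start and about 111 to 113 kb inside, next to the 2 highest H3K27ac peaks.

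Lef1, a Tcf/Lef factor gene that is itself a Wnt target in many tissues, had a Trim33 peak that lay next to an H3K27ac peak without overlapping it. Its gene spans chromosome 3 from 131110297 to 131224357 (plus strand). One Trim33 peak of fold 6.83 (percentile 77.5) had its summit 2.11 kb into the gene and began 8 bp after the end of an H3K27ac peak of fold 6.89. That H3K27ac peak was the last of 4 over 1.94 kb at the start, with folds of 4.46 to 7.54. The Trim33 summit was 0.384 kb before another start of Lef1 that RefSeq lists, at position 131112791. A second group of 4 H3K27ac peaks, with folds of 4.63 to 8.81, stood 32.8 to 34.6 kb into the gene and had no Trim33 peak. All 7 CTCF peaks of Lef1 lay towards or beyond its 3′ end, the nearest 99.8 kb from the Trim33 peak. The highest of them, with a fold of 23.8, and 1 of fold 7.35 had Hadh as the nearest protein-coding gene, as both lay inside it.

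Tcf7, the gene of the factor also called TCF-1, had its single Trim33 peak upstream. The gene spans chromosome 11 from 52246527 to 52283383 (minus strand), and the Trim33 summit lay 14.1 kb before its 5′ end with a fold of 7.33 (percentile 85.8). It overlapped the highest of all 39 CTCF peaks, with a fold of 32.8 (percentile 97.7), and the summits were 57 bp apart. H3K27ac was 14.3 kb away at the nearest, in a peak of fold 7.21 that lay 564 bp inside the start of Tcf7. Inside the gene, 2 further CTCF peaks of folds 20.8 and 15.3 carried no Trim33 peak. The highest H3K27ac peak taken for Tcf7, with a fold of 19.6, lay inside the neighbouring gene Skp1, a ubiquitin ligase component, as did another of fold 3.94, and 1 of fold 4.83 was nearer to Skp1 as well.

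Sp5, a zinc finger factor gene and direct Wnt target, had the most Trim33 peaks for its window. The gene is short (chromosome 2 from 70474923 to 70477726, plus strand), so its window of 42.8 kb is mostly flank. By count it had 2 Trim33 peaks, and 1025 of the 21887 protein-coding genes had as many or more, itself included. These 2 Trim33 peaks make 4.67 per 100 kb, more than 99.3% of protein-coding genes. One had a fold of 6.83 (percentile 77.5) with its summit 14 bp before the start, over the promoter printed above, of which it covered 193 bases. The other had a fold of 7.57 (percentile 87.0) with its summit 2.81 kb upstream. Neither overlapped a CTCF or H3K27ac peak. The single H3K27ac peak of Sp5, with a fold of 10.8, began 99 bp after the end of the Trim33 peak at the start. The single CTCF peak, with a fold of 14.7, lay inside the gene 941 bp from its 3′ end and 989 bp from that Trim33 peak.

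Axin2 encodes a scaffold of the beta-catenin destruction complex and is a widely used Wnt target. On chromosome 11 from 108917828 to 108950783 (plus strand) it had 2 Trim33 peaks of folds 5.70 (percentile 51.7) and 5.22 (percentile 33.2). The first had its summit 3.99 kb inside the annotated gene, 1470 bp after the start that RefSeq lists, and overlapped an H3K27ac peak of fold 12.6 with the summits 278 bp apart. The second lay 6.82 kb upstream of the gene and was 6.17 kb from the nearest H3K27ac peak and 9.06 kb from the nearest CTCF peak. CTCF had 5 peaks within 11.2 kb of the gene's 5′ end, and 2 of them, of folds 12.0 and 6.88, overlapped an H3K27ac peak of fold 15.6. The one of fold 12.0 is that over the printed motif. The highest, of fold 16.9, was 3239 bp from Trim33. Nearer to the 5′ end of the annotated gene, 2 H3K27ac peaks of folds 8.04 and 4.88 met neither Trim33 nor CTCF.

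Nkd1, which encodes an inhibitor that binds Dishevelled, had no Trim33 or H3K27ac peak. Its 3 CTCF peaks had folds of 6.11, 6.05 and 7.21, all in the lower part of the list, with percentiles of 20.7, 20.0 and 33.3. The nearest Trim33 summit lay 66.8 kb from the gene with a fold of 8.11 and the nearest H3K27ac summit lay 159.5 kb from it.

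Znrf3 and Rnf43 encode membrane ubiquitin ligases that remove Frizzled receptors, and neither had a Trim33 peak. The nearest one was 161.2 kb from Znrf3 and 103.1 kb from Rnf43. Znrf3 (chromosome 11 from 5276329 to 5444847) had 3 H3K27ac peaks inside, with folds of 10.1, 7.54 and 5.75, between 37.8 and 42.0 kb from its lower-coordinate end. The remaining one, of fold 5.35, lay inside the neighbour Kremen1, a receptor gene for Dkk proteins. Its 5 CTCF peaks had folds of 5.02 to 19.3. Rnf43 (chromosome 11 from 87663087 to 87735539, plus strand) had a CTCF peak of fold 29.4 (percentile 95.9) whose summit was 555 bp before its start, and that peak met neither Trim33 nor H3K27ac. Its H3K27ac peaks lay near the other end of the gene, with 2 inside (folds 7.41 and 8.76) and 4 beyond the 3′ end (folds 4.31 to 11.7), 3 of which were nearer to or inside Supt4a, a transcription elongation factor gene.

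Lgr5, the R-spondin receptor gene known as a stem cell marker of the intestine, had 2 CTCF peaks of folds 8.52 and 5.47 and no other peak. These stood 2.59 kb and 311 bp from its higher-coordinate end. The nearest Trim33 summit was 742.9 kb away and the nearest H3K27ac summit 65.2 kb.

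Dkk1 encodes a secreted inhibitor that binds the Lrp co-receptors. It had the highest Trim33 peak among the 10 genes, with a fold of 8.04 (percentile 91.5), and no H3K27ac peak. The gene spans chromosome 19 from 30545876 to 30549496 (minus strand), and the Trim33 summit was 5.34 kb upstream. It overlapped a CTCF peak of fold 20.9 (percentile 85.4), with the summits 60 bp apart. The other CTCF peak, of fold 9.76, had its summit 212 bp inside the start and no Trim33 peak. The nearest H3K27ac peak was 39.2 kb from the Trim33 peak and had a fold of 4.97.

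Over the 11 Trim33 peaks, 4 overlapped CTCF and 5 overlapped H3K27ac, beside 44.7% (95% Wilson interval 43.3 to 46.2, counting error only) and 42.6% (41.1 to 44.1) of all Trim33 peaks. Only 2 of the 11 had a −log10 q of at least 10, those at Tcf7 and Dkk1. With that cut in both lists, both overlapped CTCF and neither overlapped H3K27ac. The shares just given are for the whole list without the cut. By class and without the cut, 2 of the 11 met CTCF only (Tcf7 and Dkk1) and 3 met H3K27ac only (1 at Axin2 and 2 at Tcf7l1). Another 2 met both (Tcf7l1) and 4 met neither (2 at Sp5, 1 at Axin2 and 1 at Lef1). The list as a whole had 32.1%, 30.0%, 12.6% and 25.3% in these classes. Of the 4 peaks without a partner, 2 were within 100 bp of an H3K27ac peak, at 8 bp (Lef1) and 99 bp (Sp5). Where Trim33 met CTCF, the summits were 29 to 60 bp apart, beside a median of 63 bp over the 1979 such Trim33 peaks. Where it met H3K27ac, they were 12 to 1015 bp apart, beside a median of 220 bp over 1885. Seen from the CTCF list, 4 of 39 peaks at these genes overlapped Trim33, where 3.67% of all CTCF peaks did, and 4 of 39 overlapped H3K27ac, where 8.23% did. From the H3K27ac list, 5 of 69 peaks overlapped Trim33, where 6.23% of all H3K27ac peaks did, and 3 of 69 overlapped CTCF, where 14.6% did. Of those 69 peaks, 40 stood at Tcf7l1. One input library served as the control of every list.

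**Figure D4:**
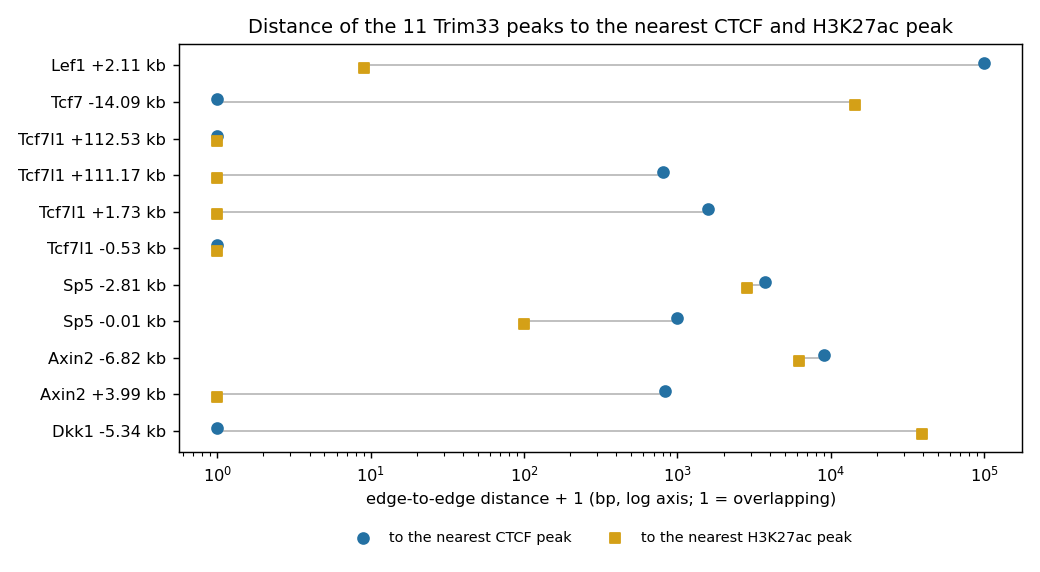
Distance in bp, plus 1, from each of the 11 Trim33 peaks to the nearest CTCF peak (circles) and the nearest H3K27ac peak (squares), edge to edge on a log axis, where 1 stands for overlap. Rows are labelled by gene and by kb of the Trim33 summit from the gene's 5' end, negative upstream. The Trim33 peaks of Tcf7 and Dkk1 overlap CTCF and are more than 14 kb from H3K27ac, and that of Lef1 is 8 bp from H3K27ac and 99.8 kb from CTCF.

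Other genes of the pathway were counted in the same way, from lists chosen with earlier results of these data known. Over 70 such genes, 31 had a Trim33 summit, 68 a CTCF summit and 53 an H3K27ac summit, beside 21%, 75.3% and 59.2% of all protein-coding genes. Of 13 signal transducers, 5 had Trim33. Their highest folds were 7.06 for Apc, a scaffold of the destruction complex, 6.34 for Btrc, a ubiquitin ligase subunit, 5.94 for Dvl3, which relays the receptor signal, and 5.90 and 4.33 for the kinase genes Gsk3a and Gsk3b. Of 11 nuclear co-factors, 6 had it. They were Tcf7l2, the remaining Tcf/Lef gene, and Bcl9, each with a fold of 6.83, Tle3 with 6.67, Bcl9l with 6.65, and Tle4 and Tle1 with 6.02 and 4.82. Bcl9 and Bcl9l are co-activators of beta-catenin and the Tle genes encode Groucho co-repressors. At all 6 of these genes the highest Trim33 peak overlapped H3K27ac, where 42.6% of all Trim33 peaks did. That share covers every peak of the list, not only the highest peak of each gene.

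Of 20 secreted or membrane antagonists and agonists, 5 had Trim33 and 10 had H3K27ac, and these counts are to be read against the same 21% and 59.2%. The highest Trim33 folds were 6.03 for Frzb, 5.92 for Apcdd1, 4.94 for Cer1, 4.94 for Sfrp2 and 4.82 for Sfrp1. The highest peak of none of these 5 genes overlapped H3K27ac. Of 10 other targets, 5 had Trim33, with folds of 8.44 for Myc, 8.03 for Ccnd1, which encodes cyclin D1, 8.00 for Sp8, a close relative of Sp5, 5.62 for Cdx2 and 4.71 for Fgf8. Of 6 Wnt ligand genes, 5 had Trim33, with folds of 7.50 for Wnt3a, 6.95 for Wnt5a, 6.33 for Wnt11, 5.22 for Wnt8a and 4.67 for Wnt3, and of these highest peaks 4 overlapped CTCF (all but that of Wnt8a) and none H3K27ac. Of 10 Frizzled receptor genes, 5 had it, with folds of 7.60 for Fzd10, 7.45 for Fzd2, 6.73 for Fzd9, 4.61 for Fzd8 and 2.88 for Fzd7, and all of these highest peaks but that of Fzd9 overlapped H3K27ac. Over all Trim33 peaks, not only the highest of each gene, 44.7% overlapped CTCF and 42.6% overlapped H3K27ac. The lists are small and differ in gene length, and no difference between lists was tested.

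**Figure D5:**
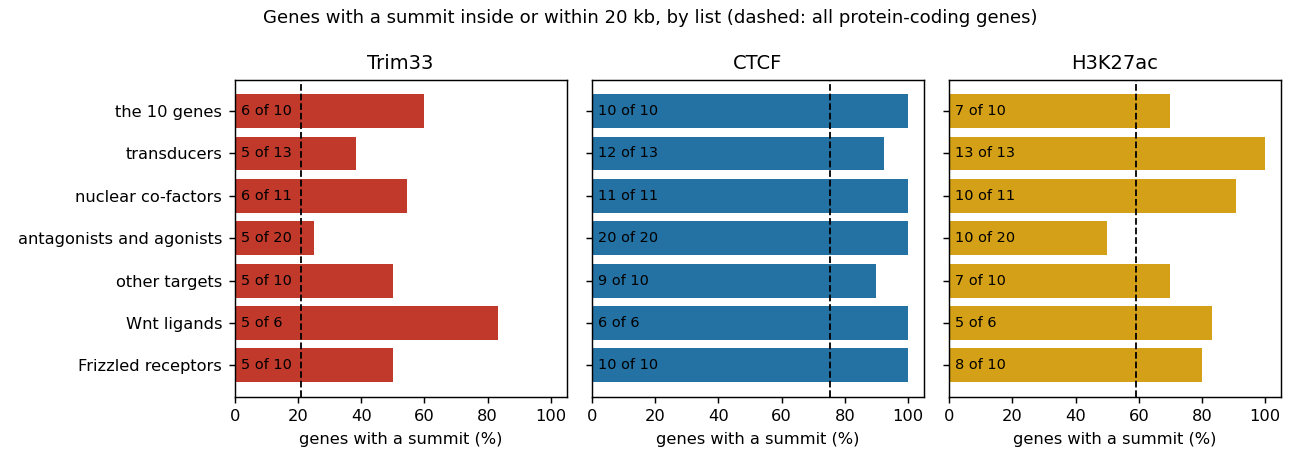
Share of genes (horizontal axis, percent) with a summit inside or within 20 kb, for the 10 genes and 6 further lists of the pathway (vertical axis), with the counts printed in the bars; panels from left to right are Trim33, CTCF and H3K27ac, and the dashed line is the share of all protein-coding genes. The 10 genes have 6 with Trim33, and the antagonists and agonists have 5 of 20.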

How the data were processed

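Peaks were compared at 10 genes in 1 library each of Trim33, CTCF and H3K27ac ChIP, grouped by the antibody the labels give, with 1 input library as control. BWA 0.7.12, SICER 1.1, MACS2 and MACS appear without roles in the submitters' processing notes, as do the builds hg19 and mm10, and the authors' deposited summary names MACS 2.1.0. That summary sets 13643929 input tags against Trim33 and 25729171 against each of the others. The deposited peak lists give per peak the fold over background (a ratio), −log10 p and −log10 q, made by the authors with 1 list per antibody and blacklisted regions removed. The lowest −log10 p is 5.06 in the Trim33 list and 7.03 in the others. The authors' deposited summary also gives other values, namely reads, tags and the percent of reads in peaks.

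Summits were assigned to genes of RefSeq GRCm38.p6, the assembly of mm10, in Python 3.11.15 (pandas 2.3.3, numpy 2.4.6), with intervals from scipy 1.17.1 and figures from matplotlib 3.10.9. Peaks overlapped with at least 1 bp shared. Strand came from the RefSeq promoter table, and exons were not told apart. The assignment was tested on simulated data. A peak missing from a list may lie below detection, above all for Trim33. The 10 genes, the lists and the rules were chosen with earlier results of these data known. All 10 genes are named, as is each pathway gene with a Trim33 summit, and other neighbours were named after their values were seen.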

Additional observations from a re-analysis of the deposited data

How the results depend on the processing

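Of 66 values recomputed under alternatives, 43 stayed within the limits used (1.5 times for a count, the 95% interval for a share), and 23 moved. With summits held to 1 kb of a gene end, Trim33 gave 2 peaks at 2 genes, CTCF 6 peaks at 6 genes and H3K27ac 8 peaks. With −log10 q of at least 10, Trim33 kept 2 peaks at 2 genes (Tcf7 and Dkk1), of which 2 overlapped CTCF and 0 overlapped H3K27ac. A window of 50 kb gave 72 CTCF peaks. Above the median fold of their lists stood 22 CTCF and 29 H3K27ac peaks, and joining H3K27ac peaks within 1 kb left 30. Trim33 peaks that met CTCF numbered 7 when peaks within 1 kb of each other were counted and 2 when the window was 5 kb. The share of genes with a Trim33 summit was 15.4% over all genes of the table. It was 22.4% over protein-coding genes within the 10 genes' range of length, which are not matched in length. Over protein-coding genes with H3K27ac it was 30.4%. The same shares were 60.7%, 80.8% and 91.2% for CTCF, and 41.8% and 65.5% for H3K27ac, where the last background does not apply. The cause of these moves was not tested. At −log10 p of at least 7, the lowest level of the other lists, all 11 Trim33 peaks at 6 genes were still counted. No paired analysis was possible because each antibody has 1 library, and no replicate could be left out. Trim33 has the fewest tags and the lowest share of reads in peaks, so a gene without a Trim33 peak is not shown to lack it.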
